A study of Mus musculus with 15 samples.

Results

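Ribosome biogenesis genes and Myc were followed in group 2 innate lymphoid cells (ILC2s), lymphocytes of the lung that lack rearranged antigen receptors and make IL-5 and IL-13. The set holds 42 gene names: Myc with 4 relatives and partners (Mycn, Max, Mxd1 and Mxd4), and 37 genes that act in making ribosomes. Members were found by symbol, using features that carry that symbol alone, and where a gene had several, the brightest on average was taken. This gave 40 genes of the 22180 with such a feature. Fbl and Tsr1 had only features that they share with another gene, so neither was measured. All 40 passed the filter on dim features, and 39 lay above it in every one of the 15 arrays, the exception being Mycn.

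There were 15 Affymetrix arrays, in 5 groups with 3 biological replicates each, all of ILC2s from mouse lung: neonates, effector adult females, effector adult males, naive adult females and naive adult males. Neonates, whose cells are also labelled naive, were 10 days old, with no sex labelled for single arrays. Naive adults were 8 weeks old. Effector adults, whose age is not labelled, were given the alarmin IL-33, which activates ILC2s, intranasally for 3 days, and their cells were taken 1 day later. No group is labelled as dosed without IL-33, so dosing and IL-33 cannot be told apart; the sources used here give no strain, sort markers or number of mice per replicate, and p-values measure only the spread between these arrays.

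A ribosome is built in the nucleolus. RNA polymerase I copies the ribosomal RNA genes into a long precursor, small nucleolar RNPs of the box C/D and box H/ACA classes guide its methylation and pseudouridylation, and separate sets of factors cut and fold it into the small and the large subunit. The transcription factor Myc, which binds DNA as a dimer with Max at the E-box CACGTG, is known in many cell types to raise transcription of these factors, while Mxd proteins pair with Max and repress. In lymphocytes Myc is known as a gene of activation and growth.

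All values are log2 levels as deposited, and a difference of 1 is a factor of 2. A gene was called when its adjusted p was under 0.05 in limma, after Benjamini-Hochberg adjustment over 16257 genes. Errors beside differences are moderated standard errors from the fit to all 15 arrays, and n is 6 effector, 6 naive and 3 neonatal arrays. All 11 ILC2 markers tested, among them Gata3 and Il7r, lay in each group above the level under which 95% of 1390 sensory receptor genes, which lymphocytes do not use, were found. That level was 4.89 on neonatal, 4.64 on effector and 5.46 on naive arrays, and Mycn lay under it in all 3 groups, as did Polr1e, Noc3l, Rrs1 and Noc4l on naive arrays. Of 46 tested markers of 11 other cell types, 18 on neonatal, 19 on effector and 10 on naive arrays also lay above that level. Cells or RNA of other types are therefore not shown to be absent. That level differs between the groups, so these marker counts do not compare one group with another. Mean correlation with the other arrays of the group lay between 0.909 and 0.9195 in neonates and between 0.912 and 0.914 in naive males, against 0.936 to 0.972 in the other groups, so the naive male and neonatal values are the noisier ones.

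Effector ILC2s had higher levels of most of the set than naive adult ILC2s. Of the 40 members 34 rose and 1 fell, against 23.7% of all tested genes called higher and 10.9% called lower. The median difference over the members was 0.90, and 13 members rose more than 2-fold. The largest difference was that of Noc4l, at 1.62 ± 0.20, and the median over all tested genes was 0.03. Every effector array lay above every naive array for 26 members, as it did for 15.2% of all tested genes. Of the 387 sensory receptor genes that passed the filter, 202 (52.2%) were called lower in effector cells and 4 higher, with a median of -0.67. The filter can admit such genes through high naive values alone, so this share and this median may partly follow from that selection. Over all 1390, without the filter, the mean per array was 2.72 to 2.85 on effector and 3.14 to 3.62 on naive arrays. Background thus also differed between these groups, and its part in the members' differences was not tested. In RNA from whole samples, fewer cells with a transcript and less of it per cell cannot be told apart.

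The shift was also measured under other scalings. With each array centred on its median, the member median was 1.04 and that of all genes 0.17. Centring moves all genes of an array by the same amount, so the members' distance of 0.86 above the median gene could not change. After a further quantile normalization the member median was 0.77, which is 0.71 above the median gene. Over all genes, higher calls made up 68.5% of the calls as deposited and 83.0% after centring. Dropping the 3 arrays least correlated with their groups left 32 members called higher.

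**Figure D1:**
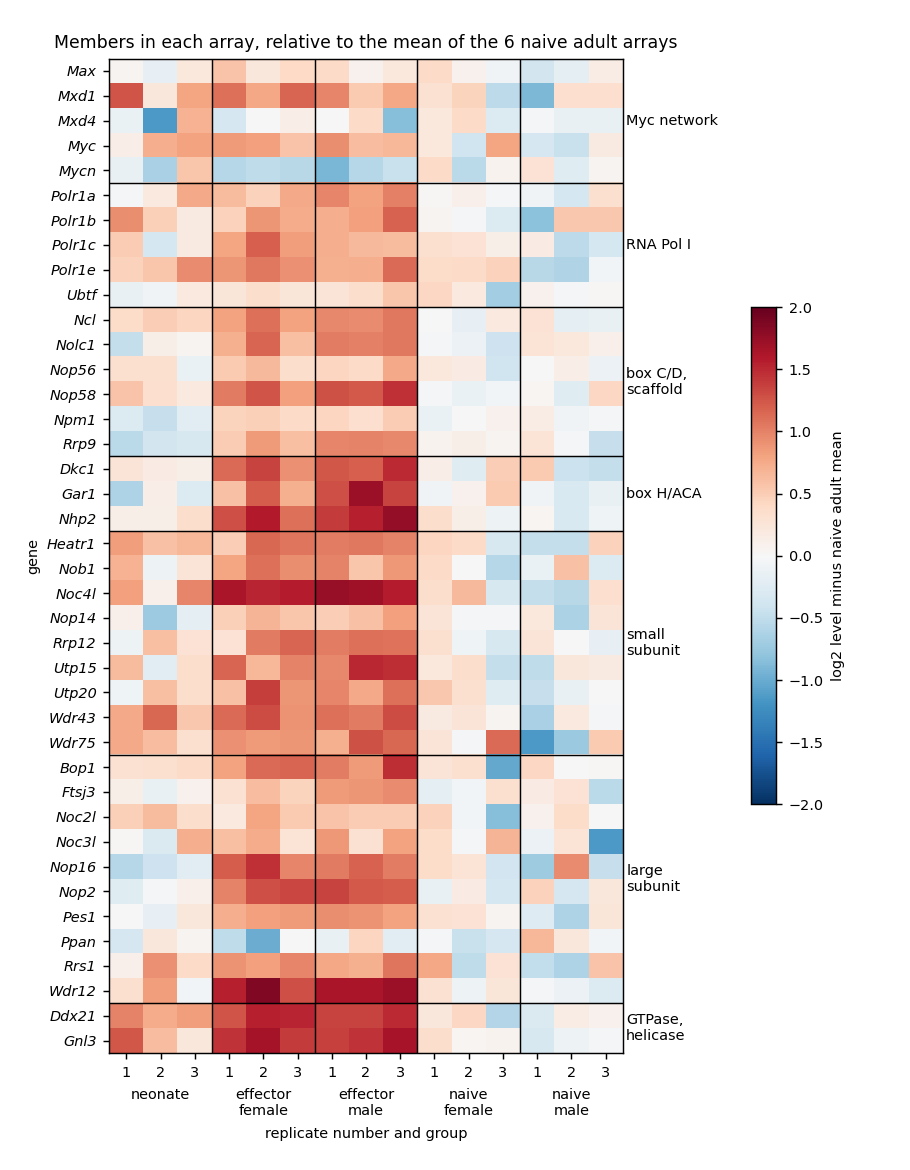
Level of each of the 40 members (rows, grouped by role) in each of the 15 arrays (columns: neonates, effector females, effector males, naive females, naive males), as log2 level minus the mean of the 6 naive adult arrays (colour). The effector columns are above the naive mean for most rows, Mycn, Ppan and Mxd4 being exceptions on average, and neonatal columns differ from row to row.

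Myc itself rose by 0.74 ± 0.19 (adjusted p = 0.00785), a factor of 1.67. Its lowest, median and highest levels were 7.67, 7.84 and 8.03 on effector arrays, against 6.66, 7.03 and 7.89 on naive arrays. The effector arrays were close together and the naive ones spread widely, and the groups overlapped because of naive female array 3. Neonatal arrays had Myc at 7.24, 7.82 and 7.91, so 2 of the 3 lay in the effector range.

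Mxd1, a repressor that competes with Myc for Max, rose as well, by 0.89 ± 0.24 (adjusted p = 0.0104). It had 7.97, 8.33 and 8.62 as lowest, median and highest levels on effector arrays, against 6.55, 7.77 and 7.90 on naive arrays, and the groups did not overlap. Neonatal levels were 8.71, 7.68 and 8.24, of which only the second lay in the naive range. Max, the shared partner, had 8.59, 8.81 and 9.07 on effector arrays and 8.14, 8.51 and 8.89 on naive arrays, and its difference of 0.31 ± 0.13 did not pass (adjusted p = 0.0775); it passed after centring, at 0.45, and without naive male array 3 (0.38) or naive female array 1 (0.38). Neonates had Max at 8.56, 8.34 and 8.71, within the naive range.

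Mxd4, another Max-binding repressor, showed no ordering of the groups. Its levels were 6.39, 7.23 and 7.62 on effector arrays, against 6.97, 7.15 and 7.62 on naive arrays, with a difference of -0.11 ± 0.27 that did not pass and turned to 0.03 after centring and to 0.06 without effector male array 3. Neonates spread widest, with 7.11, 6.09 and 7.94.

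Mycn, a Myc relative best known from embryonic and neural tissue, was the 1 member called lower, by -0.59 ± 0.20 (adjusted p = 0.0309). The lowest, median and highest levels were 3.78, 4.13 and 4.26 on effector arrays, against 4.15, 4.75 and 5.07 on naive arrays, all in a range that silent sensory receptor genes share. The mean over all 1390 sensory receptor genes was 2.72 to 2.85 on effector and 3.14 to 3.62 on naive arrays, lower in the same direction, and its part in the value was not tested. Centring (-0.46) or quantile normalization (-0.44) ended the call. So did leaving out array 1 (-0.49) or 3 (-0.57) of the naive females, array 1 of the naive males (-0.53), any one of the 3 effector female arrays (-0.59, -0.60 and -0.59) or array 1 of the effector males (-0.53). Neonatal levels of Mycn were 4.54, 4.05 and 5.25.

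**Figure D2:**
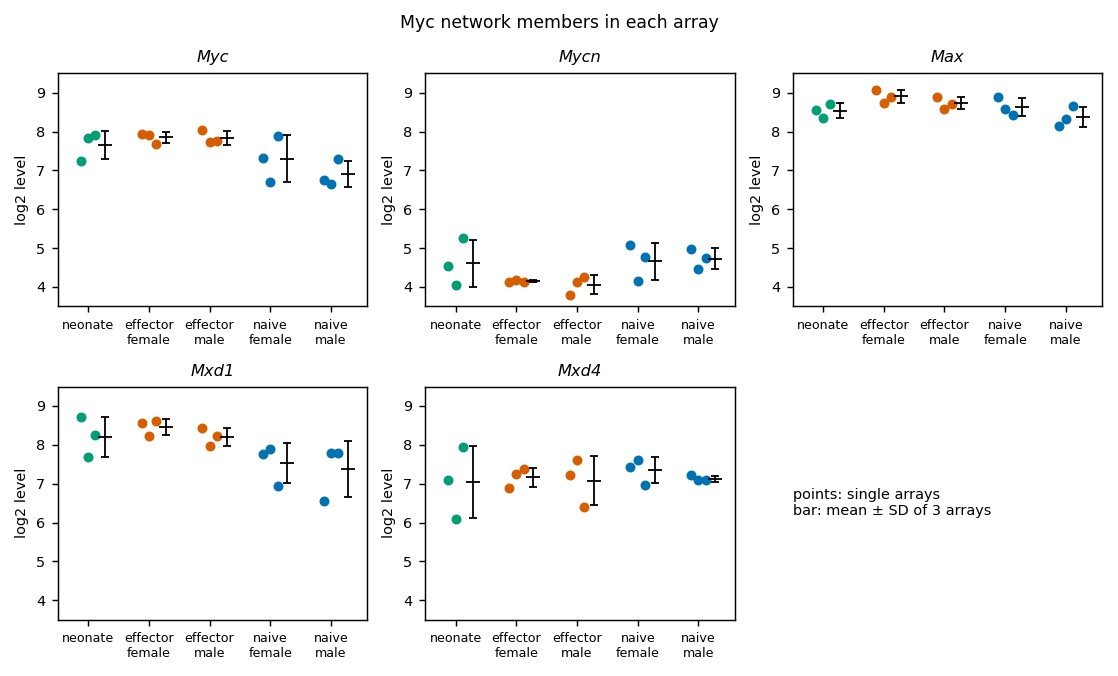
Log2 level (vertical axis) of Myc, Mycn, Max, Mxd1 and Mxd4 in each array (points), for neonates, effector females, effector males, naive females and naive males, with the mean ± SD of 3 arrays as a bar. Myc and Mxd1 are higher on effector than on most naive arrays, and Mycn lies at 5.25 or below on every array.

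In RNA polymerase I, 4 of the 5 members rose. Polr1e, a subunit of the polymerase's dissociable pair, rose by 0.91 ± 0.13 (adjusted p = 9.81e-05), with levels of 5.74, 5.92 and 6.15 on effector arrays, against 4.42, 5.17 and 5.48 on naive arrays. Polr1a, the largest subunit, rose by 0.77 ± 0.15, with 7.33, 7.66 and 7.89 on effector arrays, against 6.52, 6.88 and 7.20 on naive arrays. Neither gene's groups overlapped. The second largest subunit gene Polr1b and Polr1c, a subunit shared with RNA polymerase III, each rose by 0.80. Ubtf, the upstream binding factor that opens ribosomal DNA for the polymerase, was the member that did not pass: it had 7.90, 7.97 and 8.22 on effector arrays and 6.97, 7.72 and 8.07 on naive arrays, a difference of 0.33 ± 0.16 (adjusted p = 0.123).

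All 6 measured members of the box C/D class and nucleolar scaffold rose, with a median of 0.87. Nop58, a core protein of the methylation-guiding particle, rose by 1.18 ± 0.13 (adjusted p = 7.4e-06), with 8.51, 8.92 and 9.15 on effector arrays, against 7.45, 7.64 and 8.11 on naive arrays. Ncl, the nucleolin gene, rose by 0.94 ± 0.12, with 10.49, 10.64 and 10.79 on effector arrays, against 9.51, 9.61 and 9.98 on naive arrays. Both left a clear gap between the groups. Nolc1, a nucleolar chaperone of these particles, rose by 0.93 ± 0.14 and Rrp9, the U3-specific protein, by 0.82 ± 0.13. Npm1, the nucleophosmin gene, rose least, by 0.43 ± 0.10, and its 6 effector arrays at 12.13 to 12.29 all lay above its 6 naive arrays at 11.66 to 11.94.

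Nop56, the partner of Nop58 in the particle, depends on the choice of feature. The feature used had 9.11, 9.24 and 9.52 on effector arrays, against 8.36, 8.83 and 8.96 on naive arrays, and a difference of 0.52 ± 0.14 (adjusted p = 0.00974). Its other, dimmer features had differences of 0.13 and -0.55, and the mean of the gene's features gave 0.03 and did not pass. The feature at -0.55 had means of 4.87 on effector and 5.42 on naive arrays. The naive mean is under the 5.46 that 95% of sensory receptor genes did not exceed there. The call also ended after quantile normalization (0.35) and without the 3 least correlated arrays (0.46). Second features of Npm1, Ddx21 and Rrs1 had differences in the direction of the one used, at 0.50, 0.63 and 0.21, with overlapping groups.

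The box H/ACA class, which guides pseudouridylation and also stabilises the RNA of telomerase, rose in all 3 members. Nhp2 rose by 1.45 ± 0.13 (adjusted p = 6.6e-07), with 8.04, 8.42 and 8.70 on effector arrays, against 6.63, 6.91 and 7.30 on naive arrays. Gar1 rose by 1.14 ± 0.16, with 6.26, 6.92 and 7.39 on effector arrays, against 5.37, 5.61 and 6.20 on naive arrays. Dkc1, the dyskerin gene that encodes the pseudouridine synthase itself, rose by 1.22 ± 0.18, with 7.84, 8.14 and 8.41 on effector arrays, against 6.43, 6.86 and 7.43 on naive arrays. None of the 3 had overlapping groups, and each more than doubled.

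All 9 measured small subunit factors rose, with a median of 0.96. Noc4l, a factor of small subunit maturation, went furthest and was 3.08-fold higher (adjusted p = 1.97e-05). It had 6.75, 6.83 and 6.97 on effector arrays, against 4.67, 5.24 and 5.87 on naive arrays, where its level is near that of silent genes and the fold change thus less certain. Wdr43, a processome component, rose by 1.13 ± 0.15, with 8.91, 9.13 and 9.32 on effector arrays, against 7.37, 8.14 and 8.27 on naive arrays. Utp15 rose by 1.13 ± 0.20, Heatr1 by 0.97 ± 0.19, Wdr75 by 0.96 ± 0.25, Rrp12 and Utp20 each by 0.95, and Nob1, the nuclease that makes the final cut of small subunit RNA, by 0.87 ± 0.19. Nop14 had the smallest difference, 0.60 ± 0.17, with 8.12, 8.22 and 8.47 on effector arrays, against 7.02, 7.73 and 7.91 on naive arrays. It missed the test after quantile normalization (0.41).

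Of 10 large subunit factors, 8 rose. Wdr12 rose by 1.61 ± 0.15 (adjusted p = 1.38e-06), with 6.98, 7.32 and 7.55 on effector arrays, against 5.42, 5.62 and 6.0 on naive arrays. Its partners in the PeBoW complex, Bop1 and Pes1, rose by 1.08 ± 0.21 and 0.84 ± 0.14, so all 3 genes of this complex rose. Nop2, a methyltransferase of large subunit RNA, rose by 1.23 ± 0.15, with 8.02, 8.29 and 8.39 on effector arrays, against 6.68, 7.04 and 7.49 on naive arrays. Nop16 rose by 1.15 ± 0.23, Rrs1 by 0.88 ± 0.23 and Ftsj3 by 0.67 ± 0.15.

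Noc2l, at 0.51 ± 0.18, is the least secure of the large subunit calls. It ended after quantile normalization (0.33), and with array weights (0.40). It also ended when array 1 (0.50), 2 (0.52) or 3 (0.52) of the effector males, array 2 (0.44) or 3 (0.51) of the effector females, array 2 (0.54) or 3 (0.34) of the naive females, or array 1 (0.50) or 3 (0.48) of the naive males was left out. Noc3l, at 0.60 ± 0.24, did not pass (adjusted p = 0.0626). Ppan did not pass either, at -0.24 ± 0.19, with 6.50, 7.31 and 7.92 on effector arrays, against 7.04, 7.44 and 8.15 on naive arrays. A second Ppan feature, with the lower mean, had 0.71, so the direction for this gene depends on the feature.

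Both remaining nucleolar proteins rose. Gnl3, the GTPase nucleostemin, rose by 1.49 ± 0.15 (adjusted p = 3.37e-06), with 8.27, 8.35 and 8.56 on effector arrays, against 6.59, 6.90 and 7.24 on naive arrays. Ddx21, an RNA helicase that acts in ribosomal RNA transcription and processing, rose by 1.43 ± 0.16, with 9.18, 9.34 and 9.47 on effector arrays, against 7.33, 8.04 and 8.33 on naive arrays. Neither gene's groups overlapped.

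**Figure D3:**
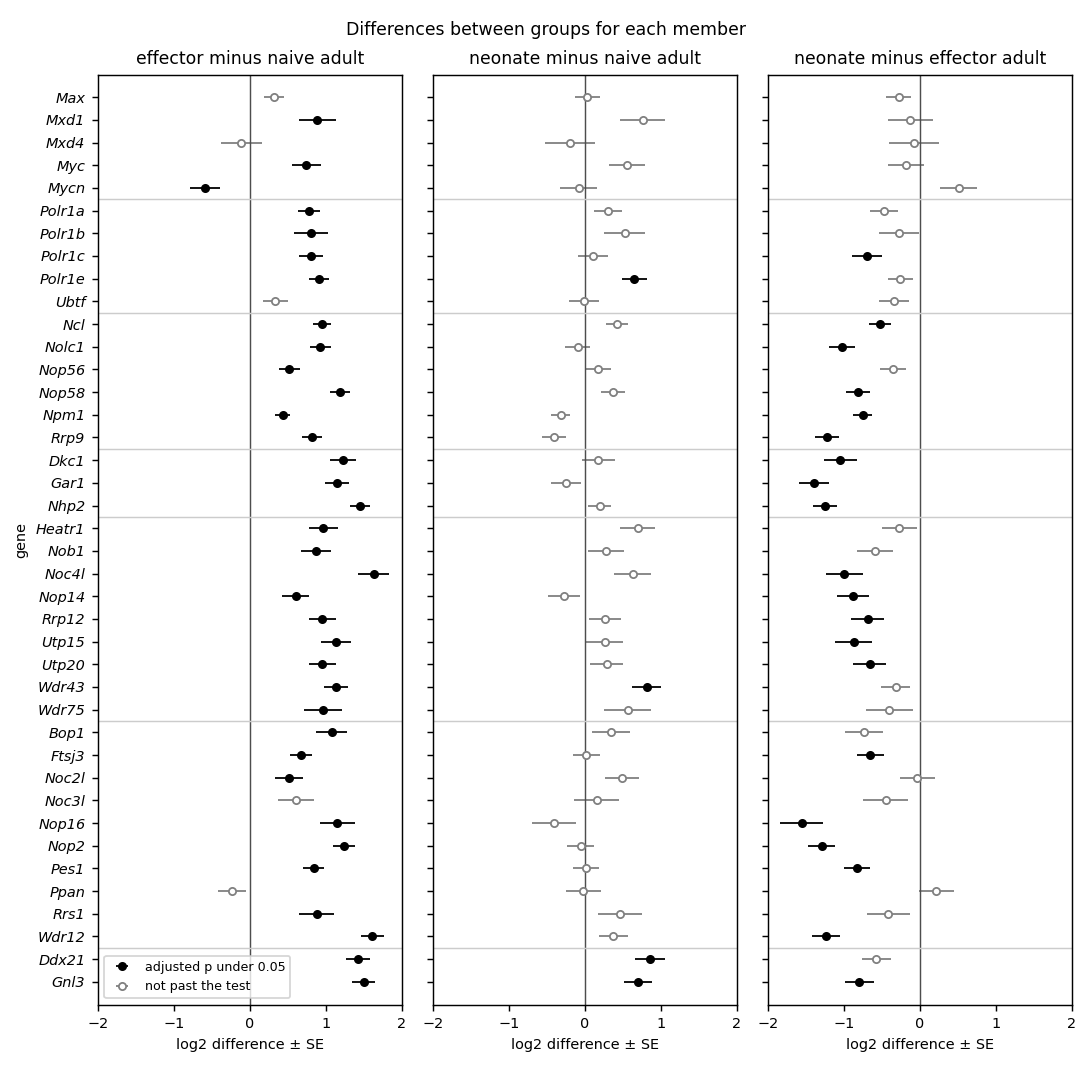
Log2 difference ± standard error (horizontal axes) of each member (rows, in the order of the roles) for effector minus naive adults, neonates minus naive adults and neonates minus effector adults; filled points passed the test and open points did not. The first panel lies mostly right of 0, the second around and somewhat right of it, and the third left of it for 38 of 40 members.

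Because so many members moved together, their promoter windows were searched for the E-box CACGTG, which reads the same on both strands. RefSeq windows (GRCm38.p6, 250 bases before to 50 bases after a gene's start) matched 35 of the 40 members by symbol, in 43 windows. The E-box was in 6 of these (14%), against 9.03% of the windows of all tested genes and 7.15% of all windows. The members were Max, Mxd4, Nop2, Pes1, Utp20 and Wdr43. Shown are the 4 with the E-box (in capitals) lying wholly between 100 bases before and 24 bases after the start. The motifs of Utp20, whose first base is base 38 after the start, and Mxd4 fall outside that stretch. The first base of the E-box is base 60 before the start in Nop2 (chr6:125131783-125131906, plus strand) and base 3 before it in Max (chr12:76962225-76962348, minus strand), and base 3 after the start in Pes1 (chr11:3963875-3963998, plus strand) and base 18 after it in Wdr43 (chr17:71616115-71616238, plus strand).
Nop2: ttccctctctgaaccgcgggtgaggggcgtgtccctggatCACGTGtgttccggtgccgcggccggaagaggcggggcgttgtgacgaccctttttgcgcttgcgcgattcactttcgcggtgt
Max: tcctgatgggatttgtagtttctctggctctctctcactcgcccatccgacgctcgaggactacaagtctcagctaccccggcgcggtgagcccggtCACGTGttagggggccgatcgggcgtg
Pes1: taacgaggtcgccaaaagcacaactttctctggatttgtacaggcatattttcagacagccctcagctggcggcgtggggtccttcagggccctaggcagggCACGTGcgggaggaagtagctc
Wdr43: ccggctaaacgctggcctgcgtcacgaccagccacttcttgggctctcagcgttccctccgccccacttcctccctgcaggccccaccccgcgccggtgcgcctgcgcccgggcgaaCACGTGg
Of these, Nop2, Pes1 and Wdr43 rose in effector cells and Max did not pass. A match describes these letters only.

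Further ribosome biogenesis factors outside the set moved in the same direction. Of 105 tested of a list of 112, 72 rose (68.6%, against 23.7% of all genes), none fell, and the median difference was 0.65. The list was chosen with earlier results of these data known, so it is not independent support. Taf1d, a subunit of the selectivity factor that recruits RNA polymerase I, rose by 1.64 ± 0.11. Urb2 rose by 1.64 ± 0.23, Pno1, which acts on the small subunit, by 1.47 ± 0.15 and Gtpbp4, a GTPase of large subunit assembly, by 1.45 ± 0.21.

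Of 56 genes tested for proteins of the cytosolic ribosome, 13 rose and none fell, with a median of 0.14, and the 23.2% that rose is close to the 23.7% of all genes. Of 69 mitochondrial ribosomal protein genes, 52 (75.4%) rose and 1 fell, with a median of 0.63. Mitochondrial ribosomes are assembled by other factors, inside that organelle. No test compared these lists with the set.

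Of 22 further genes tested that act with or on Myc, 10 rose (45.5%) and none fell, and the median was 0.36. Cip2a, an inhibitor of the phosphatase that promotes Myc decay, rose to 7.71 on effector arrays, against 3.76 on naive arrays. The naive level is below the upper quartile of the sensory receptor genes there (4.07), so the fitted difference of 3.94 ± 0.21 does not measure a fold. Bin1, a Myc-interacting adaptor, rose by 1.22 ± 0.22, Skp2, a ubiquitin ligase subunit that acts on Myc, by 1.17 ± 0.16 and Ruvbl2 by 1.07 ± 0.13. Of 18 tested genes listed as Myc targets outside the nucleolus, 13 rose (72.2%) and 2 fell (11.1%), with a median of 1.19. Among all genes the shares were 23.7% and 10.9%. The serine hydroxymethyltransferase genes Shmt2 and Shmt1 rose by 2.26 ± 0.19 and 1.78 ± 0.20, Ppat, the first enzyme of purine synthesis, by 2.13 ± 0.20 and the chaperonin Hspd1 by 1.72 ± 0.17.

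Cell-cycle genes moved with the set. All 15 mitosis genes tested rose in effector cells, with a median of 3.91, including Mki67 at 4.87 ± 0.22, Ccnb2 at 4.57 ± 0.17, Top2a at 4.43 ± 0.15 and Kif11 at 4.27 ± 0.16. Their mean level per array was 7.91 to 8.44 on effector arrays, against 4.31 to 4.69 on naive arrays, where 4 of the 15 were at or below 4.07, so that the sizes of these differences are uncertain. Of the 46 markers of other cell types, 3 rose and 12 fell, with a median of -0.23. On effector arrays 27 and on naive arrays 36 lay at or below the level that 95% of sensory receptor genes did not exceed. That level was 4.64 on effector and 5.46 on naive arrays, so the counts below it do not compare the groups. The part of proliferation and of other cells in the differences of the set was not tested.

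Few members passed the test between neonatal and naive adult ILC2s. Of the 40 members 4 rose and none fell (13 members differed at an unadjusted p under 0.05, 11 higher and 2 lower), against 6.04% of all genes called higher and 4.12% called lower. The median difference was 0.26, against 0.02 over all genes. Naive arrays serve this comparison and the one above, so the 2 sets of differences are not independent.

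Ddx21 rose by 0.85 ± 0.19 (adjusted p = 0.0119), with 8.91, 8.66 and 8.75 on the neonatal arrays, all above the naive maximum of 8.33. A second, dimmer Ddx21 feature (mean 5.28 on naive arrays) went the other way, at -0.29, so the direction depends on the feature. Wdr43 rose by 0.81 ± 0.19, with 8.78, 9.16 and 8.56, all above the naive maximum of 8.27. Gnl3 rose by 0.70 ± 0.19 (adjusted p = 0.0294), with 8.15, 7.52 and 7.12, the third within the naive range. Polr1e rose by 0.65 ± 0.16, with 5.47, 5.57 and 5.96, the first just within the naive range that ends at 5.48. Naive females had Polr1e at 5.39, 5.40 and 5.48 and naive males at 4.47, 4.42 and 4.96, and the neonates' sex is not labelled. All 4 genes also had higher levels in effector than in naive cells.

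These 4 calls rest on a spread shared with the effector arrays. With only the 9 neonatal and naive arrays fitted, or with array weights, no member was called. Ddx21 was not called without neonatal array 1 (0.79), nor as the mean of its features (0.28), Wdr43 not without neonatal array 2 (0.65), and Polr1e not without neonatal array 3 (0.50). Gnl3 was not called without neonatal array 1 (0.42) or 2 (0.74), nor when array 2 (0.67) or 3 (0.68) of the naive females or array 1 of the naive males (0.66) was left out. Without neonatal array 1 only 2 members were called higher, and without naive male array 3 there were 7, with 1 lower.

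Among members that did not pass, Heatr1 at 7.33, 7.09 and 7.16 and Ncl at 10.05, 10.18 and 10.11 had all neonatal arrays above all naive arrays (differences 0.69 ± 0.23 and 0.43 ± 0.14, adjusted p = 0.068 and 0.0747). Npm1 had all 3 below, at 11.52, 11.33 and 11.56, with a difference of -0.32 ± 0.12 (adjusted p = 0.114). A second, dimmer Npm1 feature had 0.09. Myc differed by 0.56 ± 0.24 (adjusted p = 0.152), Mxd1 by 0.76 ± 0.30, Max by 0.03 ± 0.16, Mycn by -0.08 ± 0.24 and Mxd4 by -0.19 ± 0.33, none of which passed.

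Mitosis genes differed here as well. All 15 rose in neonates against naive adults, with a median of 2.42, Mki67 by 3.96 ± 0.27 and Kif11 by 3.51 ± 0.20. Their mean per array was 6.74 to 7.30 on neonatal arrays, between the effector and naive ranges. The mean of the 35 ribosome biogenesis members was 7.25 to 7.29 on neonatal, 7.80 to 8.11 on effector and 6.93 to 7.25 on naive arrays, so neonatal arrays lay at or just above the upper end of the naive range. Whether the lists differ in this was not tested.

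**Figure D4:**
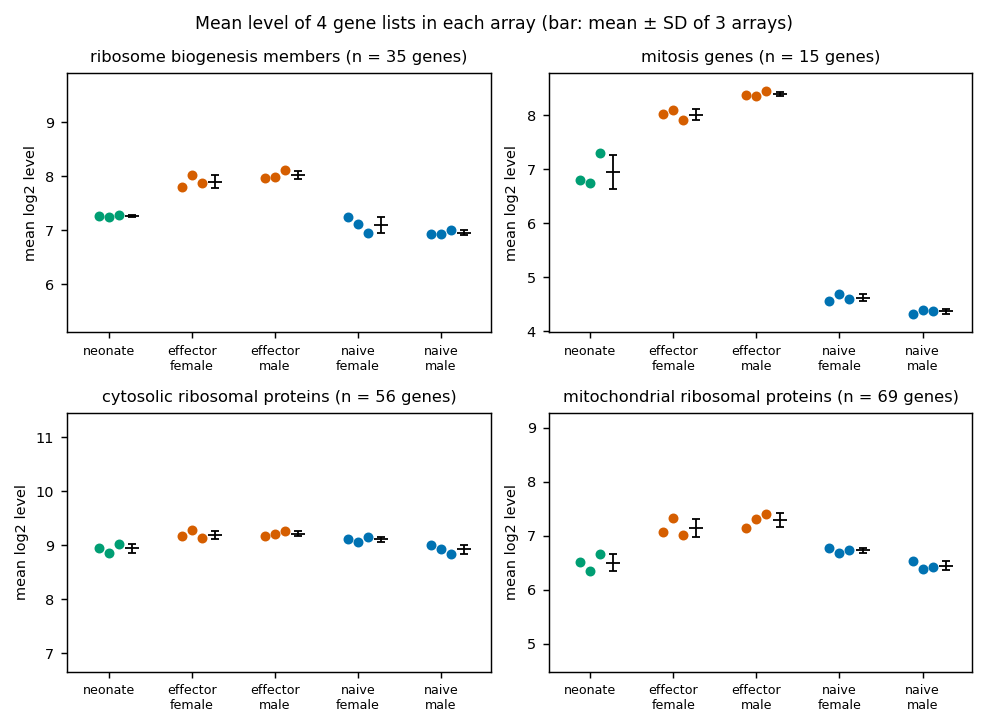
Mean log2 level per array (points; bar, mean ± SD of 3 arrays) of the 35 ribosome biogenesis members, 15 mitosis genes, 56 cytosolic and 69 mitochondrial ribosomal protein genes, in neonates, effector females, effector males, naive females and naive males. All vertical axes span the same number of log2 units. Mitosis genes are high in neonates and effector cells, while the ribosome biogenesis members are highest in effector cells, with neonates at 7.25 to 7.29.

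Of the 105 other biogenesis factors, 5 rose and 5 fell in neonates, with a median of 0.12. The share of 4.76% each way is near the 6.04% higher and 4.12% lower among all genes. Taf1d rose by 1.06 ± 0.13 and Znhit6, an assembly factor of box C/D particles, fell by 1.03 ± 0.18 relative to naive adults. Of the 22 further genes that act with or on Myc, 3 rose (13.6%) and 1 fell (4.55%). Cip2a rose to 5.99 on neonatal arrays, against the naive background level of 3.76, so the fitted 2.22 ± 0.26 does not measure a fold, and the Max-binding repressor Mxi1 rose by 0.78 ± 0.21. Of the 18 Myc targets 4 rose (22.2%) and 1 fell (5.56%), with Ppat at 1.20 ± 0.24 and Pa2g4 at 0.94 ± 0.19. The protein of Pa2g4 is also nucleolar, so that list is not wholly outside the nucleolus. Among the 46 markers of other cell types 5 rose and 3 fell, with a median of 0.05. The 5 that rose, named after their values were seen, were the mast cell protease gene Cpa3 by 2.43 ± 0.20, the surfactant gene Sftpc by 1.98 ± 0.46, the basophil protease gene Mcpt8 by 1.80 ± 0.53, the T cell receptor component Cd3e by 1.21 ± 0.25 and the macrophage marker Cd68 by 0.72 ± 0.21. The 3 that fell were Ighm of the B cell list (-0.91 ± 0.26), Ptprb of the endothelial list (-0.89 ± 0.26) and S100a9 of the neutrophil list (-0.75 ± 0.22). By list, 2 of 4 mast cell or basophil, 1 of 6 epithelial, 1 of 6 T cell and 1 of 7 macrophage or monocyte markers rose. The mean of the 4 mast cell or basophil markers was 7.54 to 8.13 on neonatal arrays, against 6.75 to 6.93 on naive arrays. Of these markers, Kit (0.20 ± 0.15) and Ms4a2 (-0.07 ± 0.14) did not pass, so the mean does not describe every marker of the list. The part of such cells in the neonatal differences of the set was not tested.

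Set against effector adults, neonatal ILC2s were lower in 20 of the 40 members and higher in none (24 differed at an unadjusted p under 0.05, all of them lower), with 14.7% of all genes called lower and 5.93% called higher. The median difference was -0.62, against -0.03 over all genes. After centring it was -0.72, against -0.14 over all genes, and after quantile normalization -0.46. Higher calls made up 28.8% of the calls over all genes, and 16.4% after centring. Of the 15 mitosis genes 14 were lower in neonates, with a median of -1.20. Of the 46 markers of other cell types 12 were higher and none lower, with a median of 0.22, including Cpa3 at 3.33 ± 0.20 and Sftpc at 2.67 ± 0.46. By list, 3 of 3 fibroblast, 2 of 4 B cell, 2 of 4 mast cell or basophil and 2 of 6 T cell markers were higher. So were 1 of 6 endothelial, 1 of 6 epithelial and 1 of 7 macrophage or monocyte markers. The part of proliferation and of other cells in these differences of the set was not tested.

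The box H/ACA genes were lower in all 3 cases: Gar1 by -1.39 ± 0.20 (adjusted p = 0.000259), Nhp2 by -1.25 ± 0.16 and Dkc1 by -1.04 ± 0.22. Neonatal levels of Nhp2 were 7.06, 7.06 and 7.29, against 8.04, 8.42 and 8.70 as the lowest, median and highest on effector arrays. Among large subunit factors Nop16 differed by -1.56 ± 0.29, Nop2 by -1.29 ± 0.18, Wdr12 by -1.24 ± 0.19 and Pes1 by -0.82 ± 0.17. In the box C/D class 5 of 6 were lower, Rrp9 by -1.22 ± 0.15, Nolc1 by -1.02 ± 0.17, Nop58 by -0.81 ± 0.16 and Npm1 by -0.75 ± 0.12. Gnl3, though called higher in neonates than in naive adults, was lower than in effector adults by -0.80 ± 0.19 (adjusted p = 0.0083).

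The other 8 calls were lost under at least 1 alternative. Without neonatal array 2 Ftsj3 (-0.57), Noc4l (-0.73), Nop14 (-0.65), Polr1c (-0.46) and Utp15 (-0.63) were not called, and without neonatal array 1 Ncl (-0.49) was not. Rrp12 was not called without effector female array 2 (-0.635) or 3 (-0.60), effector male array 2 (-0.68) or 3 (-0.68), or neonatal array 1 (-0.51) or 3 (-0.70). Utp20 was not called without neonatal array 1 (-0.47) or 3 (-0.685), and likewise when array 2 (-0.55) or 3 (-0.67) of the effector females, array 1 (-0.65), 2 (-0.71) or 3 (-0.62) of the effector males or array 2 of the naive females (-0.66) was left out.

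Myc, its relatives and its partners in the set did not pass between neonates and effector adults. Myc differed by -0.18 ± 0.24, Max by -0.28 ± 0.16, Mxd1 by -0.13 ± 0.30, Mxd4 by -0.08 ± 0.33 and Mycn by 0.52 ± 0.24, with the adjusted p above the threshold for all 5. Of the 22 further genes that act with or on Myc, 1 was higher (4.55%) and 7 were lower (31.8%) in neonates, against 5.93% and 14.7% of all genes. Without neonatal array 2, Mycn was at 0.80 and passed. Wdr43 (-0.32 ± 0.19), Heatr1 (-0.27 ± 0.23), Noc2l (-0.03 ± 0.22) and Polr1e (-0.26 ± 0.16) did not pass either, and a p that misses the threshold does not show equal levels.

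In each sex the effector cells had higher levels of the set. In females 19 of 40 members rose and none fell (30 differed at an unadjusted p under 0.05, all higher), against 10.2% of all genes called higher and 3.77% called lower, with a median of 0.73. In males 29 rose and none fell (35 at an unadjusted p under 0.05, of which 34 higher and 1 lower), against 18.7% higher and 6.25% lower, with a median of 1.02. After centring, higher calls over all genes moved from 73.1% to 83.9% of the calls in females and from 74.9% to 86.8% in males. The female count was 12 when array 2 of the naive females was left out, and 10 and 11 when array 2 or 3 of the effector females was.

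Gnl3 rose by 1.35 ± 0.22 in females and 1.64 ± 0.22 in males, and Ddx21 by 1.43 ± 0.22 and 1.42 ± 0.22. Wdr12 rose by 1.42 ± 0.22 in females and 1.80 ± 0.22 in males. Myc differed by 0.55 ± 0.27 in females and did not pass, and rose by 0.93 ± 0.27 in males (adjusted p = 0.212 and 0.021). Gar1 differed by 0.66 ± 0.23 in females and rose by 1.63 ± 0.23 in males.

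The test of the difference between the sexes' responses called 0 members, as it called 0% of all genes, with 2 members at an unadjusted p under 0.05. The largest differences were those of Wdr75 at -1.07 ± 0.50 and Gar1 at -0.97 ± 0.32 (adjusted p = 0.928 and 0.866). Calls in 1 sex only are thus not shown to be a difference between the sexes. The median over the members was -0.20, against -0.08 over all genes.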

How the data were processed

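Total RNA (Trizol) was biotin-labelled with the Nugen Encore kit, per the labels' protocols. The deposited values are log2 expression levels made with Affymetrix Expression Console and RMA, per the submitters' processing notes (software versions and any filter: not given in the sources used here). RMA includes a quantile step, so a change in total RNA is not seen. The deposited levels still do not share a median, which was 4.44 to 4.50 on effector and 4.56 to 4.64 on naive arrays. For arrays, their number limits the precision.

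Of 41345 features, 23521 had 1 gene symbol, 1814 several and 16010 none. Features had to exceed percentile 40 of the array on 3 or more arrays, which left 16257 genes. limma 3.58.1 in R 4.3.3 fitted a mean per group to all 15 arrays (10 residual and 5.05 prior degrees of freedom), two-sided, and the pipeline was tested on simulated data. The members and lists were chosen with earlier results of these data known. All members may be named; array values are given for the Myc network, for the 2 members with the largest and the 1 with the smallest moderated t per role, and for members called in neonates against naive adults or lower in effector cells. From other lists up to 4 called genes are named for effector and up to 2 for neonatal cells. Alternatives changed the filter, scaling, prior, array weights, features, arrays fitted and replicate block. Figures used matplotlib 3.10.9.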

Additional observations from a re-analysis of the deposited data

Results flagged for a closer look

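Over 80 sets of 6 arrays (40 members in effector and in naive adults, sexes together), 8 had an array set apart from the other 5 by a gap above the limit for 6 values, and chance alone flags about 1 in 20 such sets. In effector adults Heatr1 was at 7.0 in female array 1 (others 7.49 to 7.66), Rrp12 at 5.85 in the same array (others 6.58 to 6.72), Mycn at 3.78 in male array 1 (others 4.12 to 4.26), Polr1c at 9.23 in female array 2 (others 8.67 to 8.87) and Ubtf at 8.22 in male array 3 (others 7.90 to 8.01). In naive adults Bop1 was at 6.58 in female array 3 (others 7.62 to 8.02), Nop14 at 7.02 in male array 2 (others 7.61 to 7.91) and Wdr43 at 7.37 in male array 1 (others 8.00 to 8.27). The effector calls of Heatr1, Rrp12, Polr1c, Bop1, Nop14 and Wdr43 held without each of these arrays.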

How the results depend on the processing

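Of 59 member differences called in the 3 comparisons of adults and neonates, 43 kept their direction and call under all 25 alternatives. The count of members called lower in effector adults was 0, not 1, after centring and after quantile normalization. It was also 0 at percentile 60, where Mycn did not pass the filter and so was not tested. Without the 3 least correlated arrays, an alternative chosen after seeing the data, the difference of Mycn was -0.46. Members called higher in neonates against naive adults were 0, not 4, with array weights and with only the arrays compared. Those called lower were 1, not 0, with a trended and robust prior and without the 3 least correlated arrays, where 1 member was also higher than in effector adults. That setting leaves 1 naive male array, assumed to vary like the other groups. In females 11 members, not 19, were called after quantile normalization. The median over members moved after centring and after quantile normalization to 1.04 and 0.77 for effector against naive adults, -0.72 and -0.46 for neonates against effector adults, 0.85 and 0.61 in females, and 1.17 and 0.88 in males. The causes were not tested.

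Leaving out 1 array gave 33 to 36 members higher and 0 to 1 lower in effector against naive adults (median 0.85 to 0.94). It gave 2 to 7 higher and 0 to 1 lower in neonates against naive adults (0.17 to 0.31), and 0 to 1 higher and 15 to 22 lower in neonates against effector adults (-0.68 to -0.55). In females 10 to 21 were higher and 0 to 0 lower (0.64 to 0.88), and in males 24 to 31 and 0 to 1 (0.97 to 1.06). The difference of the responses stayed at 0 calls (-0.29 to -0.11).

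Differences that did not pass changed sign as follows. For effector against naive adults Mxd4 was at 0.027 after centring, and -0.25 to 0.059 over fits that each leave out 1 array. For neonates against naive adults Max was at -0.035 after quantile normalization, and Mxd4 at 0.31 and Mycn at 0.34 without the 3 arrays. Leaving out 1 array gave -0.052 to 0.13 for Max, -0.64 to 0.29 for Mxd4 and -0.40 to 0.20 for Mycn. For neonates against effector adults Mxd1 was at 0.015 and Mxd4 at 0.11 after quantile normalization, Mxd4 at 0.033 with array weights, and without the 3 arrays Mxd1 was at 0.14 and Mxd4 at 0.40. Leaving out 1 array gave -0.37 to 0.14 for Mxd1, -0.53 to 0.40 for Mxd4 and -0.31 to 0.026 for Myc.

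Arrays with the same replicate number did not deviate together (r = -0.11 to 0.10 over 30 pairs), so the number is not taken as a pairing. With the replicate number as a block the counts were 34 higher and 1 lower for effector against naive adults, 4 and 0 for neonates against naive adults, 0 and 20 for neonates against effector adults, 16 in females and 28 in males, and no difference of responses was called.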
